A study of Homo sapiens with 6 samples.

Results

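The short arm of chromosome 5 held 109 genes of the count table of GCNT1 overexpressing PC3 cells, and 106 of them are described here. They were chosen by position, as genes whose start on hg38 lies before 48800000, and the arm itself was picked on a fall shared by its genes in these same libraries, so every fold change below describes members selected for falling. The rule leaves out 3 further arm genes, whose log2 fold changes ran from -8.11 to -2.69. The 106 members, of 12703 genes in all, comprised 92 protein-coding genes, 11 lncRNA genes and 3 pseudogenes.

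PC3 is a human cell line established from a prostate cancer metastasis in bone. Both groups were PC3 cells stably transduced with lentiviral particles. In 3 lines the particles carried GCNT1, an enzyme that adds the first sugar of core 2 branches to O-glycans, and in 3 lines they were negative-control particles, with 1 stranded mRNA library per line. Whether a line was a clone or a pool of transduced cells is not given in the sources used here, so differences between the lines that GCNT1 did not make and those it made cannot be told apart.

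A chromosome arm is not a pathway. Its genes serve unrelated functions, and each is mostly transcribed from a promoter of its own, although neighbours with opposed starts can share one. Tumour cell lines such as PC3 carry chromosomes that differ in number and structure from those of normal cells. The files hold RNA counts alone, and no DNA measurement was analysed here.

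The libraries held 11392213 to 13825704 counts, at which 3 counts, the floor used here, equal 0.213 to 0.259 CPM (counts scaled to a common library total), and floors and counting intervals cover counting error only. Replicates of a group differed by more than sampling noise (chi-square per degree of freedom 1.65 to 5.61), so each was counted as 1 sample, and the spread between them is that of the lines and libraries together. For GCNT1 itself the control libraries held 9, 13 and 8 counts and the overexpressing ones 13, 16 and 35, which met at 13 raw counts but did not overlap once scaled (log2 fold change 0.98, adjusted p = 0.0362, edgeR). The epithelial markers KRT8, KRT18 and KRT19 were high in every library (188 to 386 CPM), with log2 fold changes of -0.14, -0.18 and -0.68, of which KRT18 and KRT19 were lower by adjusted p and KRT19 also by fold. EPCAM was low (4.31 to 6.51 CPM), and CDH1 had 56, 43 and 34 counts against 15, 14 and 14. The prostate gene KLK3, the leukocyte gene PTPRC and the fibroblast gene DCN were not among the genes analysed, whereas the endothelial gene PECAM1 had 18, 24 and 23 counts against 59, 54 and 60. The part of any other cell type in the results was not tested. In bulk RNA of this kind, fewer cells of a type and less RNA per cell cannot be told apart.

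Nearly all members were lower in GCNT1 overexpressing cells. Their median log2 fold change was -0.81, or 57.2% of control, with quartiles of -1.15 and -0.59, against a median of 0.00 for all 12703 genes. A log2 fold change below 0 was found for 103 of the 106 members, against 49.9% of all genes. The test of the groups, edgeR's quasi-likelihood test adjusted over all genes, placed 96 members (90.6%) lower and 1 higher, where 29.3% of all genes were lower and 28.3% higher. With the further requirement of a log2 fold change of at least 0.58, 80 members were lower and 1, IL7R, was higher, where the shares of all genes were 11.1% and 8.28%. All 3 overexpressing libraries lay below all 3 controls in 97 members, against 31.6% of all genes. Because the arm was picked from this contrast, nothing is read from these counts.

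The fall was alike in the 3 overexpressing lines. Relative to the control mean, on the scale of log2 (CPM + 0.5), the median of the members was 0.05, 0.02 and -0.06 in control libraries 1 to 3 and -0.84, -0.73 and -0.76 in overexpressing libraries 1 to 3. The groups did not overlap, and the overexpressing libraries spread by 0.056 (SD, n = 3). As a share of all counts, the members took 0.909%, 0.91% and 0.884% of the control libraries and 0.51%, 0.524% and 0.524% of the overexpressing ones.

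The fall was not uniform along the arm. Segments of 10 Mb, counted from the end of the arm, had medians of -1.03 (32 members, 49% of control), -1.22 (17 members, 43.0%), -0.81 (GUSBP1 alone), -0.66 (31 members, 63.4%) and -0.60 (25 members, 66.0%). A single step described the arm with the least absolute deviation when placed between BASP1 and GUSBP1, which are 4.18 Mb apart. The 49 members distal of it, towards the end of the arm, had a median log2 fold change of -1.07, or 47.5% of control, and the 57 proximal members, towards the centromere, one of -0.66, or 63.4%. The remaining level was thus 1.33 times higher on the proximal side. Placing the step anywhere from after MYO10 to after DROSHA, 4 positions in all, fitted within 1% of the best, and few genes were measured in that stretch.

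**Figure D1:**
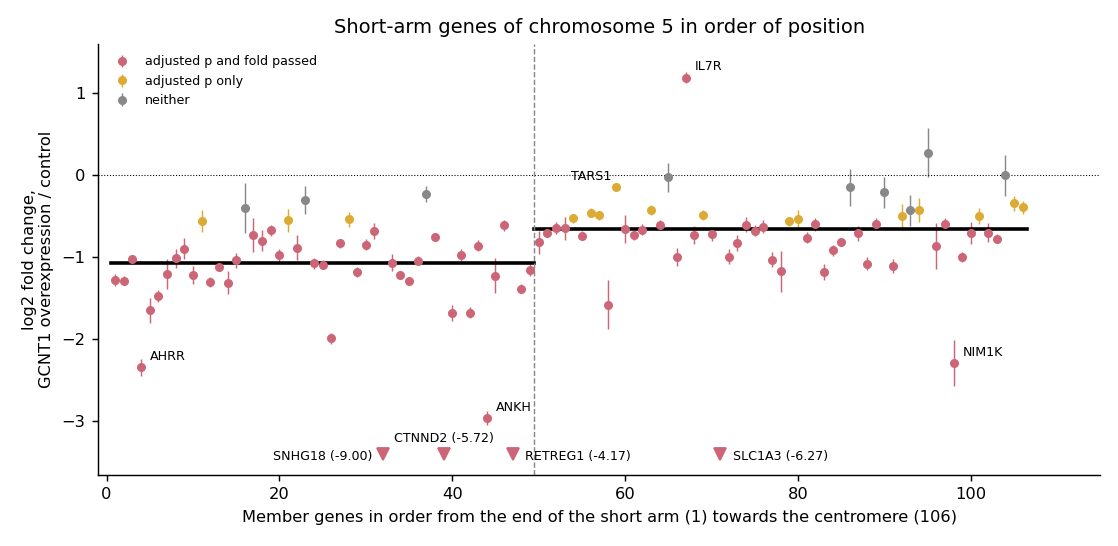
Log2 fold changes (GCNT1 overexpression over control) of the 106 members in order along the arm. Bars are standard errors derived from the edgeR test, and colours show whether the adjusted p and the fold threshold were passed. The dashed line marks the step after member 49, the black lines are the medians of -1.07 and -0.66, and the 4 triangles are members below the axis, with their values.

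Within each side, the values showed little trend. The Spearman rank correlation between position and log2 fold change was 0.43 across the 106 genes, but -0.06 across the distal 49 and 0.06 across the proximal 57, and neighbouring genes are not independent. The first 24 distal members, to ICE1, had a median of -1.03 and the other 25 of -1.15. The first 28 proximal members, to LIFR, had a median of -0.66 and the other 29 of -0.60.

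A gradual slope described the arm nearly as well as the step. The summed absolute deviation from 1 common median was 59.3, a straight line in position (0.133 per 10 Mb) lowered it by 8.94%, 1 step by 10.3% and 2 steps by 11.9%. The second step split off only the first 7 members, CCDC127 to SLC9A3, with a median of -1.28, from the next 42, with a median of -1.04. The step has 1 more free value than the line, and the difference between them was not tested.

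The distance between the sides was larger in each overexpressing library than in any control. In overexpressing libraries 1 to 3 the distal median was -1.06, -1.09 and -1.04 and the proximal median -0.76, -0.58 and -0.61, a difference of -0.31, -0.51 and -0.43 between the sides. In control libraries 1 to 3 the same difference was -0.07, -0.02 and 0.05. Since the step was placed from the mean of these libraries, this is a description of their spread. Overexpressing library 1 had the smallest difference, through a lower proximal median.

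**Figure D2:**
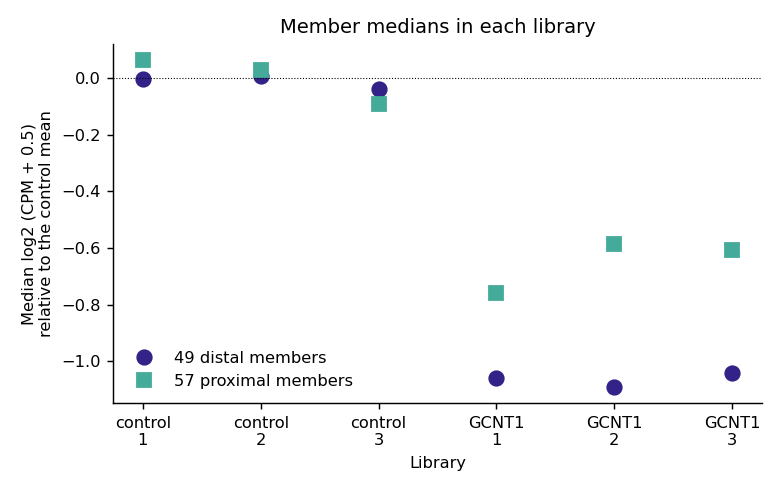
Median of log2 (CPM + 0.5) relative to the control mean (vertical axis) over the 49 distal and the 57 proximal members in each of the 6 libraries. The distal medians lie at -1.09 to -1.04 and the proximal ones at -0.76 to -0.58 with overexpression, and both lie near 0 in controls.

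The genes on either side of the step, and at both ends of the arm, show the levels behind these medians. The first member, CCDC127, had 725, 783 and 675 counts in controls and 275, 346 and 343 with overexpression, a log2 fold change of -1.28 ± 0.068 (SE). BASP1, a membrane-bound protein of growing cell edges, was the last distal member, with 1385, 1406 and 1500 counts against 659, 679 and 721, or -1.15 ± 0.071 (SE). Both distal genes were thus at 41.3% and 45.0% of control, with groups far apart. GUSBP1, a pseudogene of beta-glucuronidase and the first proximal member, had 116, 120 and 93 counts against 52, 68 and 80, or -0.81 ± 0.14 (SE), so it lay between the medians of both sides. The last member, MRPS30, a protein of the mitochondrial ribosome, had 512, 432 and 451 counts against 356, 390 and 389, or -0.39 ± 0.078 (SE).

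Genes just past the position limit continued lower than the rest of the chromosome. The nearest of them, EMB, which encodes the adhesion glycoprotein embigin, had 298, 268 and 294 counts in controls and 0 in each overexpressing library. The 27 genes in the first 10 Mb past the limit had a median of -0.56, and the 442 genes further along the long arm had one of -0.17. In 289 windows of 10 Mb with 10 or more genes across the genome, medians ran from -1.22 to 1.29 around a median of 0.01. The 4 short-arm windows, here with the genes left out by the rule, held the first, the second, the third and the fifth lowest values. The fourth was a window of 50 genes starting at 230 Mb on chromosome 2 (-0.65), and the sixth was the next window of chromosome 5 (-0.57).

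**Figure D3:**
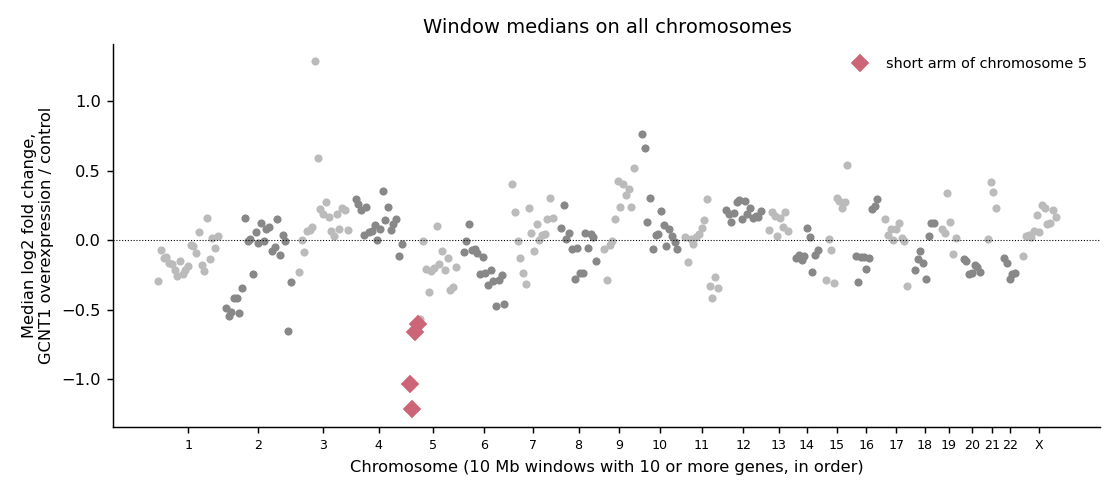
Median log2 fold change (vertical axis) of the genes in each 10 Mb window, in order along chromosomes 1 to 22 and X, with windows of fewer than 10 genes left out. The 4 short-arm windows of chromosome 5 (diamonds) lie between -1.22 and -0.60, and the other points run from -0.65 to 1.29.

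The medians were similar at low and high expression. With the members cut into 3 classes of low, middle and high mean CPM, the distal medians were -1.07, -1.01 and -1.12 and the proximal medians -0.65, -0.62 and -0.71. Protein-coding members had a median of -0.76, lncRNA members -0.99 and the 3 pseudogenes -0.80. The abundant genes give the most exact values, since their counting error is small. SDHA, the flavoprotein subunit of succinate dehydrogenase, fell from 416 ± 17.3 to 171 ± 8.98 CPM (SD, n = 3 each). CCT5, a subunit of the CCT chaperonin that folds actin and tubulin, fell from 722 ± 7.41 to 310 ± 14.4 CPM (SD, n = 3 each). RPL37, a protein of the large ribosomal subunit, on the proximal side, fell from 802 ± 33.8 to 455 ± 15.1 CPM (SD, n = 3 each). In all 3 genes the groups lay many SDs apart, at 41.1%, 43.0% and 56.7% of control.

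DAP and NSUN2 were distal genes that fell less than the median of their side. DAP, a death-associated protein and the member with the highest level, went from 919 ± 42.1 to 546 ± 18.8 CPM (SD, n = 3 each), or 59.4% of control. NSUN2, a methyltransferase of transfer RNA, went from 214 ± 5.98 to 120 ± 4.32 CPM (SD, n = 3 each), or 56.2%. MYO10, the myosin of filopodia, fell more than most, from 257 ± 7.48 to 98.7 ± 4.47 CPM (SD, n = 3 each), or 38.4%. PDCD6, a calcium-binding protein, was at 49.3% of control, close to the distal median.

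On the proximal side, PRKAA1, a catalytic subunit of the energy-sensing kinase AMPK, was at 53.1% of control and PLCXD3, a phospholipase C family member, at 61.2%. SUB1, a transcriptional coactivator, was at 71.2% and ZFR, a zinc finger protein that binds RNA, at 72.8%. SUB1 and ZFR passed the adjusted p but not the fold threshold.

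The distances between members exceeded the error of single genes. The median SE of a log2 fold change was 0.086 on the distal and 0.089 on the proximal side, whereas the median absolute deviation from the side's median was 0.24 and 0.17. The 95% interval of the gene held the median of its side in 20 of 49 distal and 30 of 57 proximal members. Within 0.3 of that median lay 27 distal and 38 proximal members. The sides also overlapped: 7 of 49 distal members lay above the proximal median and 7 of 57 proximal members below the distal one.

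Genes that start next to each other in opposite directions were set side by side. In the 12 member pairs with opposed starts within 1000 bp, the log2 fold changes differed by 0.01 to 0.34, with a median of 0.21, and differences between other neighbours were not computed. CCDC127 and SDHA, whose starts are 167 bp apart, had -1.28 and -1.28. DROSHA, which cuts primary microRNA transcripts, and C5orf22 had -0.70 and -0.64, and NSUN2 and SRD5A1, a steroid 5-alpha reductase, had -0.83 and -0.54. The widest pair was NNT, the mitochondrial transhydrogenase, at -0.34 and its antisense gene NNT-AS1 at 0.00.

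Members were also grouped by function, with 11 lists of arm genes that held 102 genes, of which 83 were measured, and the other 23 members were in no list. In 10 of the lists most measured members were lower by adjusted p (29.3% of all genes). Of all 106 members 90.6% were lower by adjusted p and 75.5% by both thresholds, where the latter share of all genes was 11.1%. Nothing is read from the counts by list. Taken relative to the median of each gene's own side, the medians of these 10 lists lay between -0.15 and 0.16. The eleventh, matrix and secreted proteins, had 1 measured member of 7, ADAMTS16, a metalloprotease with 44, 41 and 45 counts against 31, 43 and 39 and a log2 fold change of -0.30 that did not pass. Its groups, scaled, did not overlap.

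All 9 mitochondrial genes were lower by adjusted p and 7 of them also by fold, with a median of -0.72. They ran from SDHA at -1.28 to NNT at -0.34, and included NDUFS6, a subunit of respiratory complex I, at -0.98 and OXCT1, which lets cells use ketone bodies, at -1.08. All 10 genes of RNA processing and translation were lower by adjusted p and 7 also by fold (median -0.66). They ran from TENT4A, a poly(A) polymerase, at -1.18 to TARS1, the threonyl-tRNA synthetase, at -0.14.

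Of the abundant genes named here, TARS1 changed least. It had 5060, 5156 and 4733 counts against 4244, 4987 and 5251, or 406 ± 7.49 against 367 ± 4.59 CPM (SD, n = 3 each). The scaled groups did not overlap, but the level was still 90.6% of control, and the difference no longer passed with library size alone, with the replicate block (-0.14) or without control replicate 2 (-0.13).

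All 9 measured genes of chromatin, transcription and nuclear transport, of 12 listed, were lower by adjusted p and 7 also by fold (median -0.83). AHRR, the repressor of the aryl hydrocarbon receptor, had the lowest value, with 288, 290 and 291 counts against 56, 64 and 63, or 19.7% of control. The cohesin loader NIPBL was at -0.83 and the nucleoporin NUP155 at -0.67. The 6 genes of cell division and the centrosome were all lower by adjusted p and 5 also by fold (median -0.76), among them TRIP13, a checkpoint ATPase, at -1.12 and SKP2, which marks the inhibitor p27 for destruction, at -0.49.

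The 7 measured cytoskeletal genes (8 listed), 6 of them distal, were lower by both thresholds (median -1.22). They ran from CTNND2 to RAI14 at -0.73 and included TRIO, a regulator of actin organisation, at -0.97. Of 12 measured genes of membrane transport and trafficking (14 listed), all were lower by adjusted p and 10 also by fold (median -1.12). Of these 12 genes, 6 lie on the distal side, and GOLPH3, a Golgi protein that binds phosphoinositide, was at -0.52 and passed the adjusted p alone. Of 7 measured genes of ubiquitin, folding and palmitoylation (9 listed), 6 were lower by adjusted p and 5 also by fold (median -1.04). UBE2QL1, related to ubiquitin-conjugating enzymes, was lowest at -1.99, with 1399, 1500 and 1458 counts against 363, 414 and 397.

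Of 11 listed receptors and ligands 8 were measured, all proximal. By adjusted p 6 were lower and 1 higher, and by both thresholds 5 were lower and 1 higher, with a median of -0.65. OSMR, the receptor for oncostatin M, had 1499, 1456 and 1334 counts against 869, 1101 and 1142, or -0.56, and LIFR, the receptor for leukaemia inhibitory factor, was at -1.03. The growth hormone receptor GHR was at -1.11. The prolactin receptor PRLR, with 35, 47 and 35 counts against 33, 42 and 48, had overlapping groups and a log2 fold change of -0.03.

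Of 7 measured intracellular signalling genes (9 listed), 6 were lower by adjusted p and 5 also by fold (median -0.75). They ran from NIM1K, a kinase related to AMPK, at -2.29 to CARD6 at -0.15, and RICTOR, which defines mTOR complex 2, was at -0.53. All 7 listed genes of lipid, steroid and small-molecule metabolism were measured, and 6 were lower by adjusted p and 4 also by fold (median -0.66). CMBL, a hydrolase, fell from 160 ± 3.74 to 65.6 ± 1.66 CPM (SD, n = 3 each), and HMGCS1, an enzyme of the mevalonate pathway, was at -0.997.

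**Figure D4:**
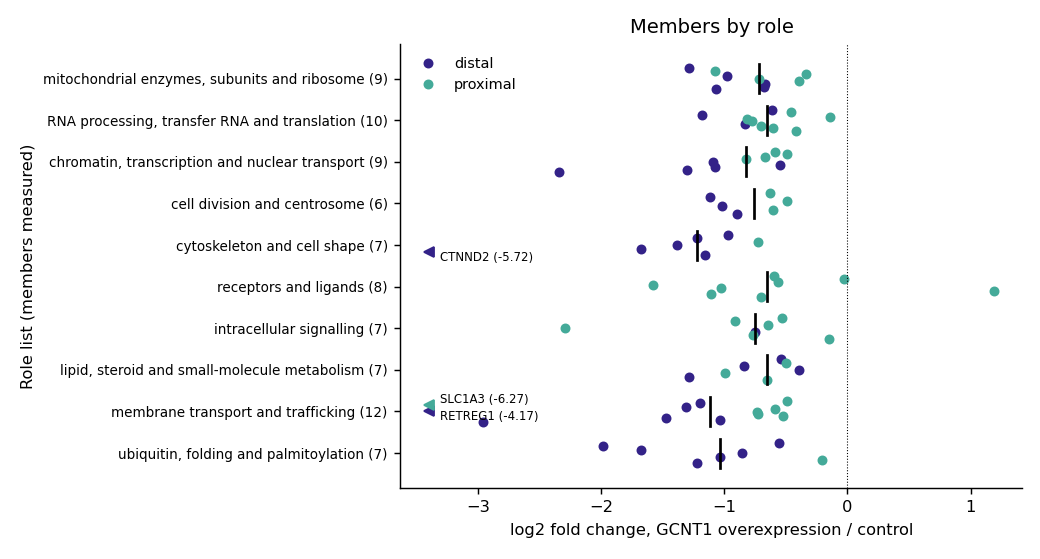
Log2 fold changes (horizontal axis) of the members in each role list with more than 1 measured member, with distal and proximal members in different colours and the list median as a black bar. Triangles at the left edge are CTNND2, SLC1A3 and RETREG1, with values beyond the axis, and IL7R is the single point far above 0.

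A few members stood far from their side. More than 1 below the side's median, on the log2 scale, lay 5 distal members (AHRR, SNHG18, CTNND2, ANKH and RETREG1) and 2 proximal ones (SLC1A3 and NIM1K), and more than 1 above it lay IL7R alone. SLC1A3, a glutamate transporter, had 97, 123 and 97 counts in controls and 1, 2 and 1 with overexpression, 84.8-fold lower (95% counting interval 32.8 to 313). CTNND2, delta-catenin, which binds cadherins at cell junctions, had 103, 119 and 92 counts against 2, 2 and 2, 56.0-fold lower (25.4 to 154). SNHG18, a non-coding host gene of a small nucleolar RNA, had 66, 65 and 54 counts against 0 in all 3, at least 21.8-fold lower than controls when set at the floor of 3 counts per library. These 3 genes are in the table through their control libraries, and without them the median of the members was -0.77. RETREG1, a receptor for the autophagy of endoplasmic reticulum, had 212, 203 and 182 counts against 12, 14 and 9, or 5.54% of control. ANKH, a membrane protein needed for export of pyrophosphate, had 727, 669 and 637 counts against 87, 102 and 90, or 12.9% of control. In each of these 5 genes no overexpressing library came near a control.

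The neighbours of these genes, named after their values were seen, were not as low, with 1 exception. SLC1A3 lies between NADK2 at -0.72 and NIPBL-DT at -0.99. CTNND2 lies between DAP at -0.75 and DNAH5 at -1.68, and RETREG1 between ZNF622 at -0.61 and MYO10 at -1.38. ANKH follows OTULIN at -0.86. SNHG18 is followed by ATPSCKMT at -1.07, while the gene before it, SEMA5A, is 1 of the 3 that the rule leaves out (-8.11).

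IL7R, the receptor chain for interleukin 7, was the only member past both thresholds in the other direction. It had 456, 430 and 439 counts in controls and 879, 1234 and 1132 with overexpression, or 36.0 ± 1.32 against 82.0 ± 7.11 CPM (SD, n = 3 each), which is 1.19 ± 0.072 (SE) as a log2 fold change. Every overexpressing library lay above every control. The genes beside it, SPEF2 at -0.995 and LMBRD2 at -0.72, were both lower. Of the other members with the highest values, NNT-AS1 (29, 31 and 22 counts against 14, 34 and 40) and ANXA2R-AS1 (13, 10 and 14 against 15, 12 and 21) had few counts and overlapping groups.

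**Figure D5:**
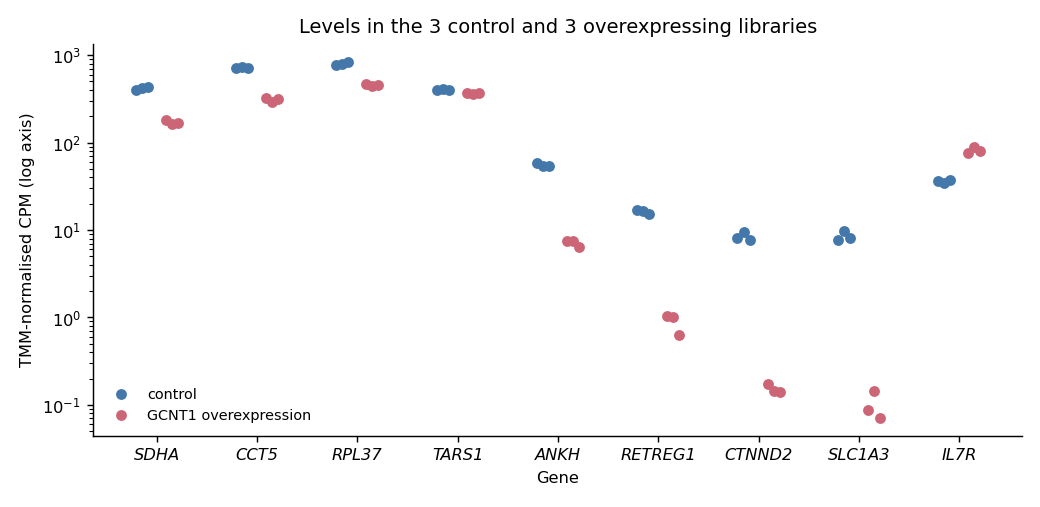
Scaled CPM on a log axis of 9 members in the 3 control and the 3 overexpressing libraries, 1 point per library. SDHA, CCT5 and RPL37 show the common fall, TARS1 the small one, ANKH, RETREG1, CTNND2 and SLC1A3 the deep ones, and IL7R the rise from 36.0 to 82.0 CPM.

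The promoters of 3 of the genes far below their side's median and of IL7R, which rose, are shown beside that of SDHA, an abundant gene 0.21 below its side's median, because the base composition of these starts differs widely. Each is the 250 bases before the RefSeq start, on GRCh38.p14 and read on the strand of the gene, with every CG dinucleotide in capitals. SLC1A3 (plus strand) is chr5:36596338-36596587, CTNND2 (minus strand) chr5:11904447-11904696, RETREG1 (minus strand) chr5:16616998-16617247, IL7R (plus strand) chr5:35856641-35856890 and SDHA (plus strand) chr5:218070-218319.
SLC1A3: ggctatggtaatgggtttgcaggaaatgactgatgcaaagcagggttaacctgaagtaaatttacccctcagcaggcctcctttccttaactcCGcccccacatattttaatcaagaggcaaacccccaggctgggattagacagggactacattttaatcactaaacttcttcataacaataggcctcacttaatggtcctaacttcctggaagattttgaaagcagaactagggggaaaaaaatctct
CTNND2: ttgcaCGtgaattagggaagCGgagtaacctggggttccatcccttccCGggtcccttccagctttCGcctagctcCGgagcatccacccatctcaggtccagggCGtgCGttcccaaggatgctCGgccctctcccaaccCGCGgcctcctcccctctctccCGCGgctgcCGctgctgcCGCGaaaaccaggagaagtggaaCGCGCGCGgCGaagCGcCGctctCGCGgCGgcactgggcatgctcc
RETREG1: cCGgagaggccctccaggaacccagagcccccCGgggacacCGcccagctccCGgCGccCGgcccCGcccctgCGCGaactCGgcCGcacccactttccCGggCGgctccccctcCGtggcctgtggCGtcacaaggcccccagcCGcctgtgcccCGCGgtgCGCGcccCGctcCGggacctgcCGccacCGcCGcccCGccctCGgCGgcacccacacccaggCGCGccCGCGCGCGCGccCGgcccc
IL7R: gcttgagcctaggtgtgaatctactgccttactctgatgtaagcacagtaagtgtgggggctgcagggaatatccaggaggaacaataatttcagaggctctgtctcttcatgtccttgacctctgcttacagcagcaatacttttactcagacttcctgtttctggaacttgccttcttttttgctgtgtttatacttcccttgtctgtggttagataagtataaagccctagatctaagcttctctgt
SDHA: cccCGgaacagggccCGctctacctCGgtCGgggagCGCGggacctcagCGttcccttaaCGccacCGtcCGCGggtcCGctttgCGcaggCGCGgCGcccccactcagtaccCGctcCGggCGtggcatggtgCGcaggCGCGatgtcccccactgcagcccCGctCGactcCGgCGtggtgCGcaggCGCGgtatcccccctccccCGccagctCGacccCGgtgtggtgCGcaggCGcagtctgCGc

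SLC1A3 had 1 CG and IL7R none, while CTNND2 had 25, RETREG1 36 and SDHA 35. The genes that fell most therefore held both a CG-poor start and CG-rich ones, and the 7 members more than 1 below their side's median ran from 1 to 45 CG with a median of 31. Over the 91 members matched in the RefSeq promoter table, of which 81 have that window directly before the annotated gene, the range was 0 to 51 and the median 23. The median was 21 for all analysed genes with a promoter and 10 for all 27305 promoters, and fewer than 5 CG were found in 8.79% of members, 6.86% of analysed genes and 35% of all promoters. The letters TATAAA, searched on both strands, were in 4 member windows (4.4%, against 11.2% of all), among them that of IL7R with 2 matches, and CCAAT was in 28 (30.8%, against 33.0%). The shares of both among analysed genes alone were not computed, and CG-poor starts are more common among all promoters. A match is a description of letters alone.

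Overlapping annotation limits some of these values. Of 104 members matched in GENCODE 44, 49 overlap a gene on the opposite strand and 18 one on the same strand, and whether the counting used strand is not given in the sources used here. Of AHRR and the genes named by the rule given below, an opposite-strand gene overlaps SLC1A3, RETREG1, ANKH, CCT5, NSUN2, DAP, MYO10, OSMR, GOLPH3, ADAMTS16, BASP1, NNT-AS1 and ANXA2R-AS1. A same-strand gene overlaps SDHA, PDCD6, CCDC127, AHRR, GUSBP1 and ANXA2R-AS1. Other genes given with values also overlap an opposite-strand gene, among them LIFR, TRIO, OXCT1, RICTOR, HMGCS1, SKP2, TRIP13, RAI14, NADK2, DNAH5 and NNT. Reads of SDHA and PDCD6 can also be shared with their pseudogenes SDHAP3 and PDCD6P1, themselves members at -0.73 and -0.80. With only the 44 members free of overlaps and pseudogenes, the median was -0.72 and the best step moved to after OTULINL.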

How the data were processed

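RNA of 6 PC3 lines, 3 per group, was sequenced by the authors as TruSeq stranded mRNA libraries with single 75 bp reads, trimmed with Cutadapt, mapped to hg38 with HISAT2 and assigned to genes with featureCounts on Galaxy. The deposited values are unnormalized read counts for each gene and library. The annotation, the strand setting and the filter on low counts are not given in the sources used here, and arm genes absent from the table are not analysed here. Groups came from the labels, which number biological replicates 1 to 3.

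Counts of all 12703 genes were scaled with TMM factors and tested with edgeR 4.0.16 in R 4.3.3 (filterByExpr, which kept every gene, quasi-likelihood fit of the 2 groups, Benjamini-Hochberg adjustment). Thresholds were an adjusted p of 0.05 and a log2 fold change of 0.58. CPM values are scaled by these factors. Same-numbered libraries deviated with correlations of -0.32, 0.01 and -0.14, so the numbers did not pair them. Positions came from RefSeq (GRCh38.p14) by Entrez identifier, matching 12661 genes, and strands and overlaps from GENCODE 44. Steps were placed by the least sum of absolute deviations with at least 5 members a side, in Python 3.11.15. Scripts were tested on simulated data.

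The members, lists and tests were chosen with earlier results of these data known. Genes were named by a rule: the 5 lowest and the 5 highest members, the 3 most abundant per 10 Mb segment, the most abundant per role list, those beside the step, the first and the last member, and the nearest gene past the limit. Neighbours, pairs, members far from their side and other examples in the role lists were named after their values were seen. Alternatives were limma-voom (limma 3.58.1), DESeq2 1.42.0, scaling by RLE or by library size alone, no filter, at least 10 counts in every library, the replicate block, each library left out, and other segments, criteria and member sets.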

Additional observations from a re-analysis of the deposited data

How the results depend on the processing

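The call counts of members, the medians of both sides and the step were recomputed under the alternatives. limma-voom, DESeq2, RLE factors, no filter, squared deviations and leaving out the 3 members at the floor left the step after BASP1, and the count lower by both thresholds was 80 with limma-voom, DESeq2 and RLE factors. With the replicate block, 94 members were lower by adjusted p, 80 by both thresholds, and the distal and proximal medians were -1.07 and -0.66. Of the calls of the 29 named members the replicate block changed that of TARS1 alone. Library size alone gave a members' median of -0.75, -1.16 for 10 to 20 Mb, -0.54 for 40 to 50 Mb and a distal median of -1.02, with the median of all genes at 0.06. At least 10 counts in every library kept 100 of the 106 members and gave -1.15 for 10 to 20 Mb. Lower by both thresholds were 73 members with library size alone and 74 with at least 10 counts in every library. The range between segment medians was 0.62, and 0.38 with the members cut into 3 classes by order. With the 3 genes left out by the rule included, the last distal gene was the one starting at 31193686. Without overlaps and pseudogenes, an alternative chosen after seeing the data, the median was -0.72, 10 to 20 Mb had -1.29, 40 to 50 Mb had -0.71, the last distal member started at 14581792, the distal median was -1.13, and 32 of 44 members were lower by both thresholds, fewer by construction.

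Leaving out each library in turn gave members' medians from -0.82 to -0.74, -1.23 to -1.15 for 10 to 20 Mb, -0.66 to -0.56 for 40 to 50 Mb and distal medians from -1.11 to -1.07. The count lower by both thresholds then ran from 75 to 84. The last distal member then started at 17216823 or, without control replicate 3 and without overexpression replicate 3, at 21459513 (GUSBP1). The signs of PRLR and NNT-AS1, neither of which passed the test, were not stable. PRLR had 0.032 with library size alone and -0.11 to 0.12 when libraries were left out. NNT-AS1 had -0.075 with limma-voom, -0.017 with DESeq2, -0.00087 with RLE factors, -0.030 with the replicate block and -0.23 to 0.26 when libraries were left out. For these genes counts of 14 to 48 per library limit what can be told. Of 373 values of named members under the alternatives, 360 kept their direction and side of the threshold. The causes of these changes were not tested.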
